A study of Drosophila melanogaster with 2 samples.

Results

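The nuclear genes of transfer RNA (tRNA) of Drosophila melanogaster were examined for peaks of the protein CG10959. They were taken as all genes of the biotype tRNA on the chromosome arms of the Ensembl annotation of the dm6 assembly (98 on 2R, 79 on 3R, 48 on 3L, 41 on 2L, 24 on X and 0 on 4). This gave 290 genes of the 17896 annotated there, transposable elements and pseudogenes left out. Whole embryos aged 0 to 8 h from a transgenic line expressing CG10959 fused to eGFP were used for chromatin immunoprecipitation with an anti-GFP antibody and sequencing (ChIP-seq). The 2 libraries are biological replicates of this 1 group, and no second genotype, treatment or stage was compared. A whole embryo holds many cell types at many stages, so a peak is an average over them. A peak was assigned to a tRNA gene when its summit lay within 500 bp of the gene's start, in the authors' list of peaks that passed their reproducibility threshold on the pooled replicates (main list, 3417 peaks on the arms). The authors' much longer ranked list (144499 peaks on the arms) also holds peaks that did not pass, and was read for weak signal. Signal is the authors' peak strength over a control, in their own units, and with no read numbers at hand its depth is unknown.

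Transfer RNAs carry amino acids to the ribosome and read codons through their anticodon. Their genes are transcribed by RNA polymerase III from promoter elements inside the gene, the A box and the B box, which the factor TFIIIC binds before TFIIIB recruits the polymerase upstream of the start. In flies, as in other eukaryotes, most tRNAs are encoded by several near-identical copies, often grouped and often inside the introns of protein-coding genes. A gene name gives the amino acid (isotype), the anticodon as DNA, a number for the tRNA sequence and a number for the copy. Thus tRNA:Cys-GCA-1-2 is a cysteine tRNA gene with anticodon GCA.

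Few tRNA genes lay beside a CG10959 peak. Of the 290 genes, a main-list summit lay within 500 bp of the start of 8 (2.76%): 2 cysteine genes (tRNA:Cys-GCA-1-2 and tRNA:Cys-GCA-1-3), a lysine gene (tRNA:Lys-CTT-1-12), and 1 gene each for tyrosine (tRNA:Tyr-GTA-1-8), glutamine (tRNA:Gln-TTG-2-1), tryptophan (tRNA:Trp-CCA-2-2), phenylalanine (tRNA:Phe-GAA-1-2) and histidine (tRNA:His-GTG-1-3). The cysteine and lysine genes shared a peak, so the 8 genes stood at 6 peaks. The share was close to that of all bases of the arms, of which 2.42% lay within 500 bp of a main-list summit, and below the 9.62% of protein-coding genes, the 4.51% of other non-coding genes and the 8.46% of all genes. The other 282 tRNA genes had none. Genes that are neighbours share a window, and no test was made of these shares.

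**Figure D1:**
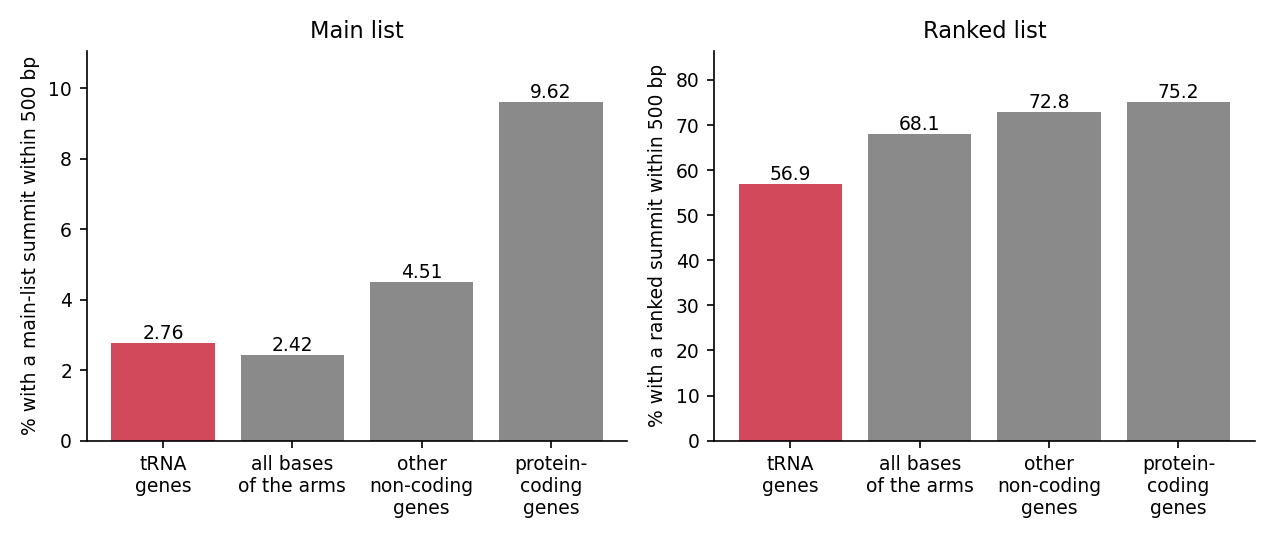
Bars give the percentage of tRNA genes, of all bases of the arms, of other non-coding genes and of protein-coding genes with a summit within 500 bp, in the main list (left) and the ranked list (right). The tRNA share of 2.76% is close to the 2.42% of all bases in the main list, and the 56.9% in the ranked list is the lowest of the 4 shares there.

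The genes at the peaks with the highest signal are shown first, to make plain what a summit lies beside. They are given 5′ to 3′ on the gene's own strand, from the RefSeq copy of the dm6 assembly, with matches to the A box letters GCNNAGNNG and to the B box letters GTTCNANNC in capitals. The cysteine gene tRNA:Cys-GCA-1-3 (chr3L:3096369-3096440, plus strand) has the same letters as tRNA:Cys-GCA-1-2. The tyrosine gene tRNA:Tyr-GTA-1-8 (chr3R:8669081-8669174, minus strand) is longer, at 94 bases against 72, and the glutamine gene tRNA:Gln-TTG-2-1 (chrX:3427452-3427523, minus strand) has no match to the A box letters.
tRNA:Cys-GCA-1-3: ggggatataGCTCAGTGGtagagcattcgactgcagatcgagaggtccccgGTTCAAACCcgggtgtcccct
tRNA:Tyr-GTA-1-8: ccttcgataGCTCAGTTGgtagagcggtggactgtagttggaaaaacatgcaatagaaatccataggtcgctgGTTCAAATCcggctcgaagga
tRNA:Gln-TTG-2-1: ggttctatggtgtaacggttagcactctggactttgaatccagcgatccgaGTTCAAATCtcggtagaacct

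The DNA under 4 of the 6 summits is shown because the summits lay outside these genes, and the stretches at the tryptophan and histidine genes are not printed. Each stretch is on the plus strand of dm6, with the summit base in capitals. The stretches at the cysteine gene (chr3L:3096251-3096440) and the glutamine gene (chrX:3427452-3427711) run between the summit and the far end of the tRNA gene, whose bases are also in capitals. Those at the tyrosine gene (chr3R:8669345-8669445) and the phenylalanine gene (chrX:6744253-6744353) give 50 bp on each side of the summit.
Cys-GCA-1-3 peak: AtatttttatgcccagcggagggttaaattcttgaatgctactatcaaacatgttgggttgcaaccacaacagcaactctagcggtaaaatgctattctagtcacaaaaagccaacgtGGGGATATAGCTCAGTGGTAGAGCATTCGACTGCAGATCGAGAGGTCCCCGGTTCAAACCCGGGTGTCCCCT
Gln-TTG-2-1 peak: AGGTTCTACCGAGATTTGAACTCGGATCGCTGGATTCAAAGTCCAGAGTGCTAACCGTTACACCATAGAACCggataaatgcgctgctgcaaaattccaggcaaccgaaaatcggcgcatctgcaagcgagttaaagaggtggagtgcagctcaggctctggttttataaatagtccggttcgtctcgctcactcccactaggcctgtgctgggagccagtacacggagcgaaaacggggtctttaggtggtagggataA
Tyr-GTA-1-8 peak: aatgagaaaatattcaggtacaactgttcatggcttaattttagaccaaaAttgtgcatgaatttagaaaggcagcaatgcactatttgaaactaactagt
Phe-GAA-1-2 peak: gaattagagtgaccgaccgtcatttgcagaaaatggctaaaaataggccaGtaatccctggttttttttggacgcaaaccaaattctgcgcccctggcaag

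None of the main-list summits fell inside a tRNA gene, where the A and B boxes lie. The 290 genes cover only 22.0 kb, and the arms had 0.0255 main-list summits per kb. At that density so few bases would often hold no summit. Relative to the start, 6 of the 8 genes had the summit upstream, between 118 and 353 bp away, and 2 had it downstream, at 240 and 260 bp, beyond the 3′ end of the gene. No main-list summit lay between 100 bp upstream and 199 bp downstream of any tRNA start. The mean of the arms was 0.255 summits per 100 genes in a bin of 100 bp, and neighbouring genes share windows. Whether summits avoid the tRNA genes was not tested. Within 200 bp, 3 genes (1.03%) had a summit, again near the 1.00% of all bases and under the 6.81% of protein-coding genes. Within 1000 bp there were 25 (8.62%), where all bases gave 4.65% and protein-coding genes 12.1%.

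The strongest of the peaks stood beside tRNA:Tyr-GTA-1-8 (FBgn0012024). Its pooled signal was 437.161 on 3R at 8669283 to 8669471, the 207th highest of the main list, and the signal was 221.608 in replicate 1 and 194.637 in replicate 2. Both replicates therefore held it, with their summits 9 and 2 bp to the left of the pooled one. The gene lies within introns of CG8036 and of p (pink, an eye colour gene), is the last of a row of 3 tyrosine genes, and its summit was 221 bp upstream of the tRNA start and 223 bp from the transcription start site (TSS) of CG8036. The tRNA and the coding gene start are thus at nearly the same distance from this summit.

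The peak shared by tRNA:Cys-GCA-1-2 (FBgn0052289), tRNA:Cys-GCA-1-3 (FBgn0052287) and tRNA:Lys-CTT-1-12 (FBgn0052285) had a pooled signal of 294.211, on 3L at 3096224 to 3096315, with 112.845 in replicate 1 and 181.364 in replicate 2. It was the narrowest of the 6, at 92 bp, where the median width of the main list was 360 bp and 21 peaks (0.615%) were as narrow or narrower. Its summit lay between the cysteine genes, 260 bp downstream of one start and 118 bp upstream of the next, and 353 bp upstream of the lysine gene. The peak and the tRNA genes lie in an intron of Cht7, a chitinase gene on the opposite strand, 10707 bp from the nearest coding TSS. All 6 tRNA genes of this group, which spans 1854 bp, had a ranked summit within 500 bp.

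At tRNA:Gln-TTG-2-1 (FBgn0052493) the pooled signal was 246.487, on X at 3427648 to 3427769, with 150.64 in replicate 1 and 107.226 in replicate 2. This gene stands alone, is the only tRNA gene with its sequence, and lies in introns of CG12535 and of the non-coding gene lncRNA:CR44999. The summit was 188 bp upstream of the tRNA start and 8096 bp from the nearest coding TSS, that of CG14269. Together with the cysteine and lysine genes it made up the 4 tRNA genes, at 2 peaks, with a main-list summit away from any coding start.

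The other 3 peaks each lay beside the start of a protein-coding gene. At tRNA:Trp-CCA-2-2 (FBgn0050227) the pooled signal was 184.634 on 2R at 18639076 to 18639435, with a ranked signal of 71.7179 in replicate 1 and 106.132 in replicate 2, and the summit was 14 bp from the TSS of CG30122. At tRNA:Phe-GAA-1-2 (FBgn0052740) it was 167.027 on X at 6744123 to 6744482, with 65.5124 and 101.37 in replicates 1 and 2, and the summit was 65 bp from the TSS of RpL17, a ribosomal protein gene. At tRNA:His-GTG-1-3 (FBgn0050251) it was 89.2569 on 2R at 12335056 to 12335415, with ranked signals of 46.9931 and 51.425, and the summit was 80 bp from the TSS of CG8490. The tryptophan and histidine peaks were in the thresholded list of replicate 2 and not in that of replicate 1, while the other 4 peaks were in both.

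**Figure D2:**
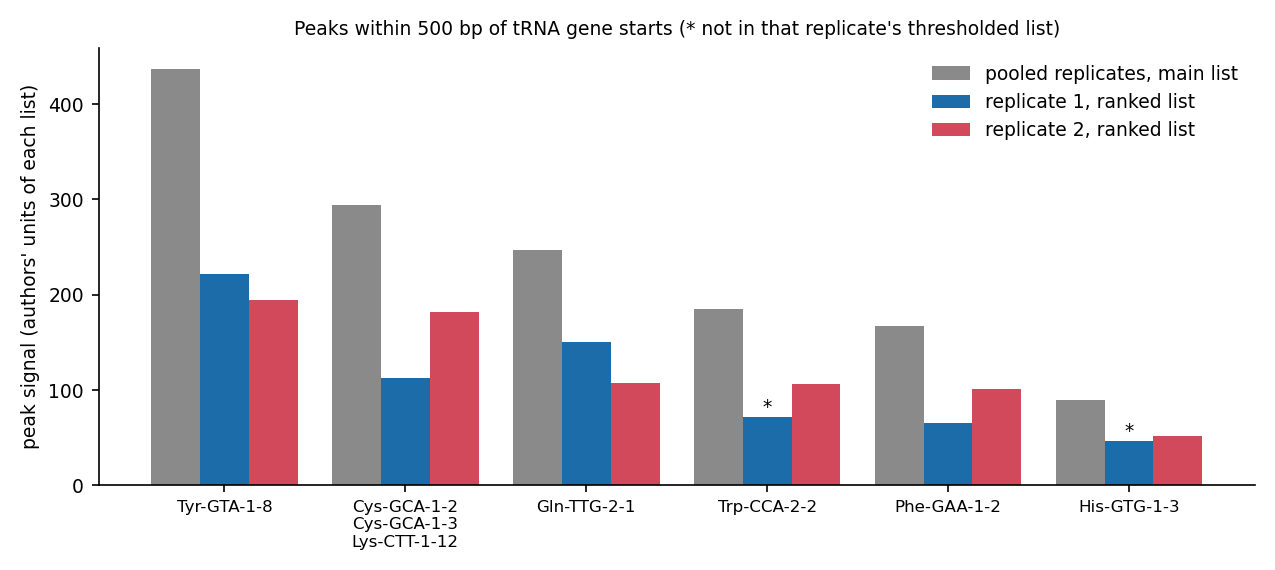
Bars give the signal of each of the 6 peaks, in the authors' units of each list, for the pooled replicates and for replicates 1 and 2; an asterisk marks a peak outside that replicate's thresholded list. The tyrosine peak is the highest in all 3, at 437.161, 221.608 and 194.637, and the histidine peak the lowest.

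**Figure D3:**
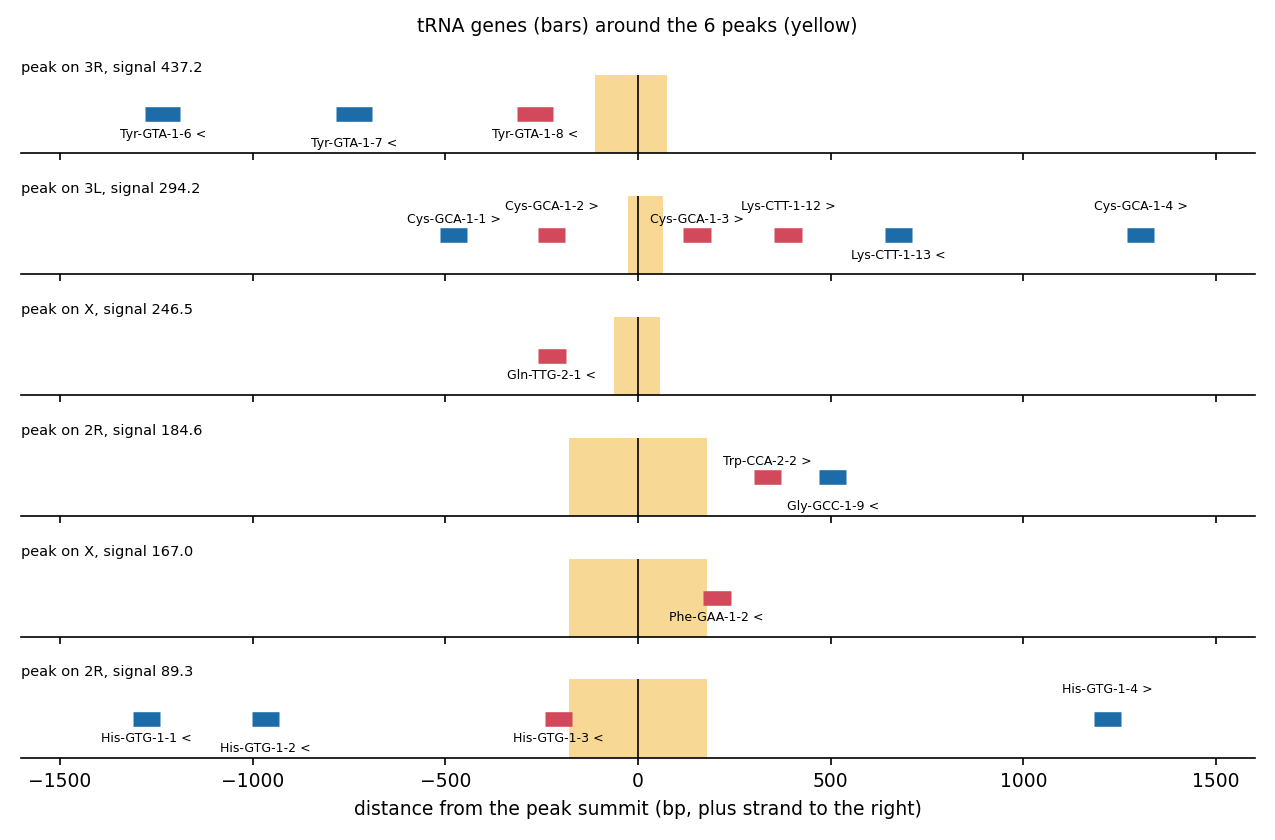
Each row centres on the summit (vertical line) of 1 of the 6 peaks, with the peak in yellow, tRNA genes as bars, red where the summit is within 500 bp of the start, and distance in bp on the x axis (> plus strand, < minus strand). All summits lie outside the tRNA genes, and the 92 bp peak on 3L lies between the cysteine genes Cys-GCA-1-2 and Cys-GCA-1-3.

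By rank the 6 peaks spanned much of the main list, from the 207th to the 2712th highest. In signal they ran from 89.2569 to 437.161, where the main list ran from 2.09 to 1924.84. The median of the 6 was 215.56, against a main-list median of 124.875 with quartiles of 93.0498 and 199.723. The tyrosine, cysteine and lysine, and glutamine peaks were above the upper quartile, and the histidine peak, 2712th of the 3417, was below the lower one. All 6 were also in the authors' conservative list. Of the 6, 4 had the summit within 500 bp of a coding TSS, a position that 35.7% of all main-list summits had. Counted by gene, 4 of the 32 tRNA genes that start within 500 bp of a coding TSS had a peak (12.5%), and 4 of the 258 that start farther away (1.55%). Other non-coding genes gave 6.39% within that distance and 4.15% beyond it. The 4 near genes stood at 4 peaks and the 4 far ones at 2.

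Of the 290 genes, 135 lay inside another gene. Of these, 5 (3.70%) had a main-list summit, at 3 peaks, and of the 155 outside, 3 (1.94%), also at 3 peaks. All 3 outside genes were near a coding TSS: none of the 140 genes that were both outside another gene and over 500 bp from a coding TSS had a main-list summit, against 4 of 118 inside another gene at that distance. Genes in introns had 5 of 127 and genes overlapping a host exon 0 of 8. Of tRNA genes on the strand opposite to their host, 3 of 76 had a peak, all at the shared one in Cht7, and of those on the same strand 0 of 51. The tyrosine and glutamine genes each lie in hosts on both strands, as 8 tRNA genes do.

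Grouping and copy number were also compared. Joined where neighbours were under 2 kb apart, the genes formed 159 groups, of which 90 were single genes and 69 held the other 200. A main-list summit was found at 6 of the 159 groups (3.77%). Of the 7 groups of 5 or more genes, only that in Cht7 had one. Only 52 genes had a sequence that no other tRNA gene shared, and 238 had at least 1 identical copy. The whole annotated gene was compared, so genes named as copies of the same tRNA can count as different. The tRNA:Tyr-GTA-1 genes, which differ in length, all did, tRNA:Tyr-GTA-1-8 included. The 52 are thus not all single-copy genes. A main-list summit was found at 2 of these 52, 3 of the 103 with 2 to 5 identical copies and 3 of the 135 with 6 or more. Reads from identical copies cannot be told apart inside the gene, and how the authors placed such reads was not stated in any source read.

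The isotypes with a peak were 7 of 22. Cysteine genes had 2 of 7, histidine 1 of 5, phenylalanine and tryptophan 1 of 8 each, tyrosine 1 of 10, glutamine 1 of 12 and lysine 1 of 19. The 15 without one included the larger families of arginine (26 genes), leucine (22), glycine (20), serine (20) and glutamate (19), and the initiator methionine genes (6), whose tRNA starts translation. With 1 gene behind each count except that of cysteine, whose 2 genes share a peak, the order of the isotypes rests on single loci.

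Weak signal was read next from the ranked list. A ranked summit lay within 500 bp of 165 tRNA starts (56.9%), fewer than the 68.1% of all bases, 75.2% of protein-coding genes, 72.8% of other non-coding genes and 74.4% of all genes. Within 200 bp it was 73 (25.2%), with 38.6% of all bases and 45.4% of protein-coding genes. A share below that of all bases was not particular to tRNA genes. Small nucleolar RNA (snoRNA) genes had 61.3% within 500 bp and 32.3% within 200 bp. Small nuclear RNA (snRNA) genes had more, 87.5% and 62.5%. In the ranked list of replicate 1 the count was 136 (46.9%) and in that of replicate 2 it was 177 (61.0%), where protein-coding genes had 68.2% and 76.7%. Counted by group, 109 of 159 (68.6%) had one, but a group covers more sequence than a gene. The share was 61.5% of genes with a sequence of their own, 50.5% with 2 to 5 identical copies and 60.0% with 6 or more. It thus did not fall steadily with the number of identical copies.

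Around the starts, there were fewer ranked summits than in the mean of the arms. In bins of 100 bp from 200 bp upstream to 499 bp downstream there were between 5.86 and 7.93 ranked summits per 100 tRNA genes, where the mean of the arms was 10.8 and the bins from 1000 to 601 bp upstream had 10 to 10.7. The bins between these, from 600 bp upstream on, varied from 7.59 to 10. Farther downstream the bins varied from 7.24 to 14.1. Protein-coding genes had 14.2 in the 100 bp before the start, the tRNA genes 5.86. Over the tRNA genes farther than 1000 bp from a coding TSS that bin had 6.64. Inside the genes themselves there were 16 ranked summits in 22.0 kb, or 0.726 per kb, against 1.08 per kb of the arms. In replicate 1 it was 0.499 against 0.965, and in replicate 2 it was 0.953 against 1.00, so the replicates differed in how far they fell below the arms. Only 1 of these 16 summits was in a gene with a sequence of its own, at 0.224 per kb. Genes with identical copies had 0.854 per kb. In replicate 1 these values were 0.224 and 0.570. In replicate 2, with 3 summits in genes with a sequence of their own, they were 0.671 and 1.03.

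**Figure D4:**
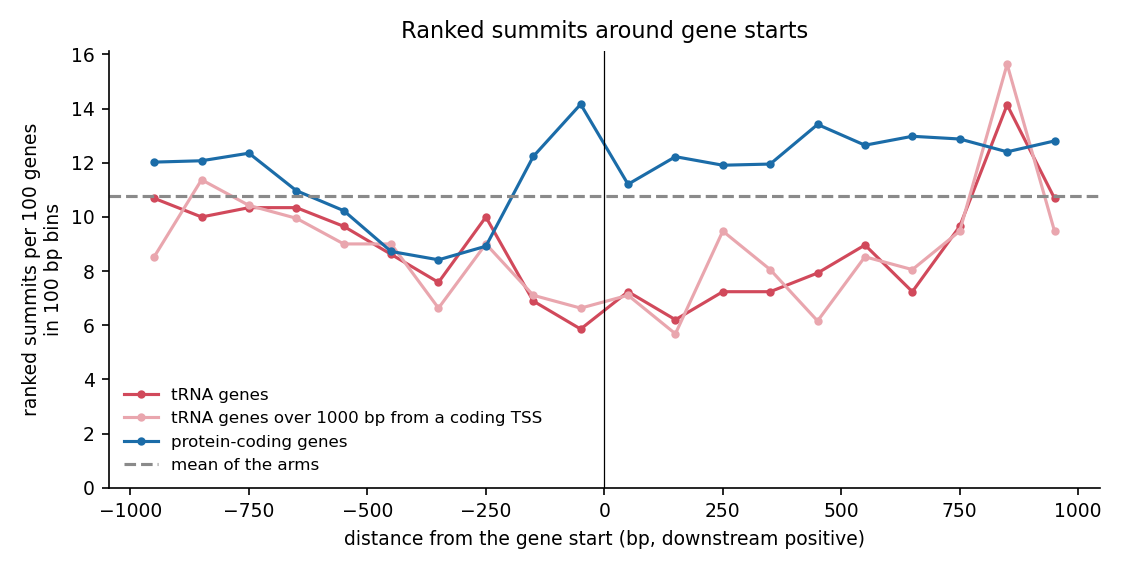
Ranked summits per 100 genes in 100 bp bins are plotted against distance from the gene start, for all tRNA genes, tRNA genes over 1000 bp from a coding TSS and protein-coding genes, with the mean of the arms dashed. The tRNA genes have 5.86 in the bin just before the start, where protein-coding genes have 14.2.

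The median signal of the strongest ranked summit at a tRNA gene was below that at other genes. The strongest summit within 500 bp had a median of 28.4048 over the 165 genes, with quartiles of 21.4538 and 39.2541 and a range of 4.24 to 437.161. Taken the same way, the medians were 39.1665 for protein-coding genes and 36.7807 for other non-coding genes. The median of all ranked peaks, each counted once, was 27.0457. That is not a like measure, because at a gene only the strongest summit in the window was kept. Over the 104 tRNA genes with a ranked summit in both replicates, the Spearman correlation of the replicates' strongest signals was 0.266, and over 8373 protein-coding genes it was 0.566. These are descriptions across genes, which share libraries and, in groups, windows.

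By isotype, all 7 cysteine and all 5 histidine genes had a ranked summit, and 2 of 10 asparagine genes did, where all tRNA genes had 56.9%. These counts rest on few loci, since neighbours can share a summit. Most of the cysteine genes lie in the Cht7 group, 4 of the histidine genes in a group on 2R, and most asparagine genes in EcR and Ptr. Cysteine genes also had the highest median signal, 47.9, and serine genes the lowest, 13.7, with none above 28.4 among the 8 of 20 that had a ranked summit. The single selenocysteine gene had no ranked summit. Of the other groups of 5 or more genes, a group of 5 arginine, asparagine and lysine genes in EcR, the ecdysone receptor gene, had no ranked summit at any gene, and a group of 7 isoleucine and leucine genes in ATP8A had 1, of signal 42.7. A group of 7 arginine and serine genes on X had ranked summits at 6, none above 24.7. A group of 7 initiator methionine and glutamate genes had them at 4, up to 105.513, a group of 6 asparagine and arginine genes at 3, up to 20.3, and a group of 5 valine, proline and alanine genes at 4, up to 61.2.

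**Figure D5:**
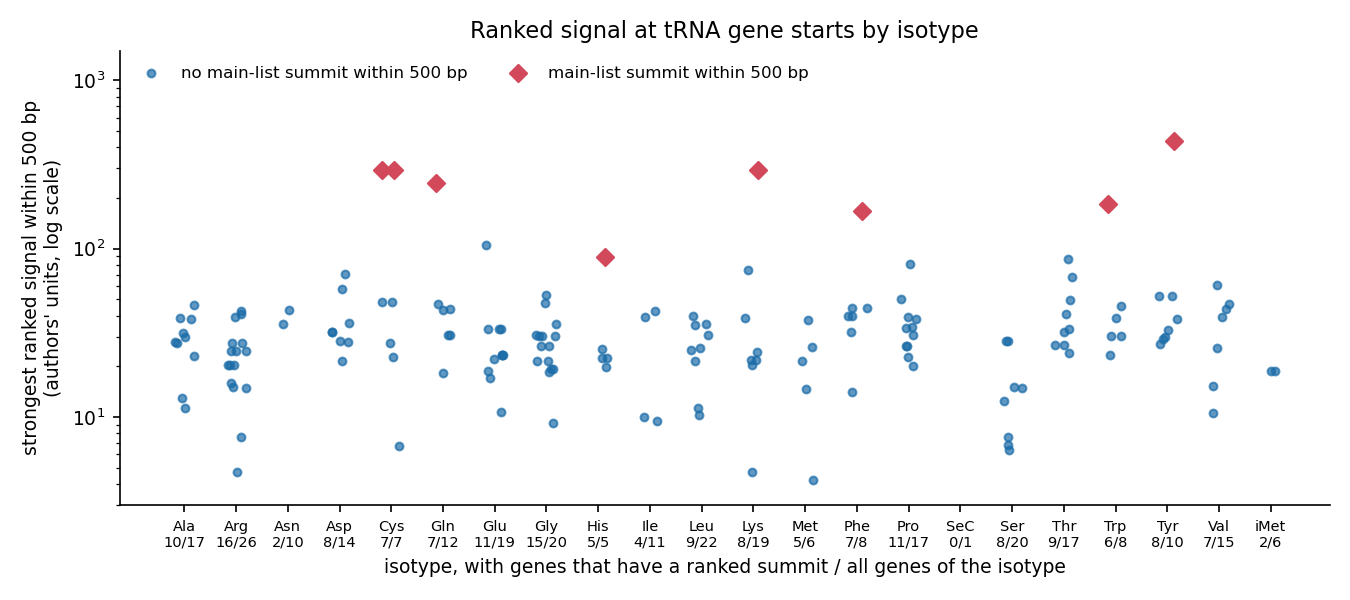
Each point is the strongest ranked signal within 500 bp of a tRNA gene start (log scale, authors' units), by isotype; numbers below give genes with a ranked summit over all genes of the isotype, and genes with none have no point. The 8 genes with a main-list summit (red diamonds) lie in 7 isotypes, from 89.2569 to 437.161, and 146 of the 157 others lie below 50.

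The highest signals among genes with no main-list peak began with tRNA:Glu-TTC-1-5, at 105.513, with 42.4163 in replicate 1 and 65.5227 in replicate 2. Its ranked peak had the authors' top score of 1000 but was one of 84 ranked peaks on the arms that had a score of at least 830, the lowest in the main list, and were left out of that list. tRNA:Thr-AGT-1-4, 257 bp from the TSS of its host CG31279, had 87.2167, with 24.9484 and 55.0033 in replicates 1 and 2. tRNA:Pro-TGG-1-3 had 80.5503, with 55.1269 and 24.3669. Both replicates had a ranked summit at each of these 3 genes. tRNA:Lys-TTT-1-1, in Btk, had 74.788, with 22.6502 and 50.9068. tRNA:Asp-GTC-1-11 in Esyt2 had 70.7288, with 41.0941 in replicate 2 and no ranked summit within 500 bp in replicate 1, and tRNA:Thr-TGT-1-1 had 68.1914, with 27.792 and 35.4087. The pooled summit of the aspartate gene lay 499 bp from its start, at the edge of the window, and it is the same summit that gives the ranked signal of the neighbouring snRNA:U6:96Aa.

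Each replicate's own thresholded list gave 6 tRNA genes in replicate 1 (2.07%) and 12 in replicate 2 (4.14%), where protein-coding genes had 6.61% and 7.69%. The 6 genes of replicate 1 were all in replicate 2's list and in the main list. The 4 genes found only through replicate 2 were tRNA:Lys-TTT-1-1, tRNA:Thr-AGT-1-4, tRNA:Val-CAC-1-1 with a replicate 2 signal of 48.7996, and tRNA:Gly-GCC-1-9, whose peak is the one at tRNA:Trp-CCA-2-2.

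A further 17 tRNA genes had their nearest main-list summit over 500 and up to 1000 bp from the start. Of these, 5 were neighbours of genes already named and shared their peaks: tRNA:Tyr-GTA-1-7, tRNA:Cys-GCA-1-1, tRNA:Lys-CTT-1-13, tRNA:Gly-GCC-1-9 and tRNA:His-GTG-1-2. The strongest separate peak, of 261.506 with 151.427 and 114.397 in replicates 1 and 2, was near tRNA:Val-TAC-1-1 and 142 bp from the TSS of lama. The next was at tRNA:Glu-CTC-3-1, with 188.075 pooled, 97.4473 in replicate 1 and 96.7001 in replicate 2, and lay 8413 bp from the nearest coding TSS, that of ru. Those at tRNA:iMet-CAT-2-1 and tRNA:Leu-CAA-2-2 had pooled signals of 141.385 and 136.611. The rest, at tRNA:Leu-AAG-1-3, tRNA:Trp-CCA-2-1, tRNA:Leu-AAG-1-2, tRNA:Pro-CGG-2-1, tRNA:Thr-AGT-1-6, tRNA:Val-TAC-1-2, tRNA:Ile-AAT-1-9 and tRNA:Arg-TCT-3-1, ranged from 76.3 to 121.897. The genes just outside the window were tRNA:Pro-CGG-2-1 at 504 bp and tRNA:Cys-GCA-1-1 at 514 bp, and the one just inside was tRNA:Lys-CTT-1-12 at 353 bp.

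Letters of the promoter elements were searched next. The A box was written GCNNAGNNG and the B box GTTCGANNC, where N is any base, and the motifs do not overlap in a tRNA gene. On their own strand 146 tRNA genes (50.3%) had the A box letters, 160 (55.2%) the B box letters and 83 (28.6%) both. Of the 8 genes with a main-list summit, 5 (62.5%) had the A box letters and 2 (25%) the B box letters GTTCGANNC. The looser GTTCNANNC, chosen after the data were seen, was in 271 (93.4%) and in all 8 genes with a main-list summit. Within 50 bp of the summits, on either strand, the B box letters GTTCGANNC occurred at 2 of the 6 peaks, those of tRNA:Trp-CCA-2-2 and tRNA:His-GTG-1-3, 32 and 8 bp from the summit and outside the tRNA gene. They occurred at 32 of all 3417 main-list summits (0.936%) and at 1.20% of protein-coding gene starts. The A box letters occurred at 1 of the 6, the cysteine and lysine peak, and at 11.97% of all main-list summits and 15.1% of protein-coding starts. A match of letters is not a binding site, and a gene without a match need not lack the element. No looser letters were tried for the A box.

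Other genes that RNA polymerase III transcribes were listed for comparison. Of 104 such genes, 1 (0.96%) had a main-list peak by the same rule, where other non-coding genes had 4.51% and all genes 8.46%. That gene was snRNA:7SKa, whose RNA restrains the elongation factor P-TEFb, with a signal of 121.8. Its summit was 292 bp downstream of the start, inside the gene. Its ranked signals in replicates 1 and 2 were 38.4243 and 67.8787. Most of the 104 are the repeated 5S ribosomal RNA genes, of which 2 of 96 had even a ranked summit. These 5S genes lie side by side on 2R, so the share of the 104 largely reflects 1 locus. The 3 U6 spliceosomal RNA genes had ranked signals of 65.4 to 70.7, with a summit shared between 2 of them, and none in the main list. Over all 32 annotated snRNA genes, the U6 genes included, 9 (28.1%) had a main-list summit, and 12 of 269 snoRNA genes (4.46%) did.

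The protein-coding genes behind tRNA supply were compared with the 9.62% of all protein-coding genes. Of 20 cytoplasmic aminoacyl-tRNA synthetase genes, whose enzymes load tRNAs with amino acids, 5 had a main-list summit within 500 bp: GluProRS with a signal of 383.207, IleRS with 244.565, ThrRS with 140.439, beta-PheRS with 120.02 and SerRS with 113.225. Mitochondrial synthetase genes had 0 of 15. Of 11 genes of polymerase III factors, a list that also holds the repressor Maf1 and the transcript-binding protein La, 3 had one, and these were Bdp1 and Brf, which encode subunits of TFIIIB, with 333.078 and 329.23, and CG7099 with 440.554. The replicates gave 175.274 and 151.581 at Bdp1, 174.462 and 136.144 at Brf, and 209.732 and 235.443 at CG7099. Of 12 polymerase III subunit genes 1 had one, Polr3E, with 121.622. Of 28 tRNA processing and modification genes 3 did: Trmt6 and Trmt61, the subunits of a tRNA methyltransferase, with 418.726 and 129.646, and Rtca, an RNA cyclase gene, with 111.159. These lists are short, were chosen with earlier results known, and got no test.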

How the data were processed

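Per the labels, chromatin was sonicated to 200 to 800 bp and 2 biological replicates form 1 group. Per the descriptions deposited with the files, these are narrowPeak lists on dm6, each made from sample and control alignments: ranked and IDR (irreproducible discovery rate) thresholded lists per replicate and pooled, and a conservative pooled list. Both the aligner and the peak caller were not given in the sources used here. As deposited, a peak's signal is its strength over control by the authors' caller, on an unstated scale, so levels were compared only within a list, and replicates' values are set side by side without a comparison of size. The score deposited with each peak is the authors' whole number up to 1000. Controls were not analysed here, nor were 16 per-replicate columns of the pooled lists, or a second pooled ranked list. Depth is unknown, so no interval is given.

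Summits (1-based) were placed on Ensembl release 115 and sequences read from RefSeq's dm6. Replicate values at a main-list peak are those of a replicate summit within 100 bp. Values for a gene are the strongest ranked summit within 500 bp. Shares were set beside those of all bases and other genes; no p was computed. The members, lists, motifs and comparisons were chosen with earlier results of these data known. Named genes were the tRNA genes with a main-list summit, the 6 others with the highest ranked signal, those with one over 500 and up to 1000 bp away and up to 4 per other list; SerRS, and the snRNA and snoRNA counts, were added after their values were seen. CG10959 itself is not described. Snapin, put on the factor list in error, was removed after its value was seen, and 6 listed symbols or spellings had no match. Alternatives changed the window, the list, the replicates and the group gap. The code that places summits was checked on simulated data, with 40 of 40 planted summits found, which says nothing about the real peaks. Scripts ran in Python 3.11.15 with pandas 2.3.3 and numpy 2.4.6, correlations in scipy 1.17.1 and plots in matplotlib 3.10.9.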

Additional observations from a re-analysis of the deposited data

How the results depend on the processing

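No paired analysis was possible because the 2 replicates form 1 group. The 8 tRNA genes with a main-list summit became 3 within 200 bp, 25 within 1000 bp, 13 with distance taken from any base of the gene, 4 with the strongest 500 peaks and 4 without genes near a coding TSS, and 6 to 12 with 1 replicate's own list. They stayed 8 in the conservative list and were 9 with the left-out peaks added. Ranked summits were at 165 genes, 73 within 200 bp and 136 to 177 with 1 replicate, and their median signal of 28.4048 was 25.2 within 200 bp and 39.7 within 1000 bp. In the replicates' own lists, whose units need not match the pooled ones, it was 16.7 to 19.2. The 6 groups with a peak were 4 to 9 with 1 replicate and 6 at gaps of 5 and 10 kb. Genes inside a host, 5, became 13 within 1000 bp and 5 to 7 with 1 replicate, and those outside, 3, became 12 and 1 to 5. Genes near a coding TSS, 4, became 7 within 1000 bp and 2 to 6 with 1 replicate, and those away, 4, became 18 and 4 to 6. The looser B box letters matched 271 genes in place of 160. Without replicate 2 the outside and near counts, 1 and 2, lost the tryptophan and histidine genes, whose replicate 1 peaks did not pass the authors' threshold. With 6 peaks, each such count rests on a few loci, and read depth is unknown.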
